A study of Mus musculus with 5 samples.

Results

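Mesenchymal progenitors of mouse hindlimb muscle were compared between the quiescent state and day 1 after injury with notexin, a snake venom phospholipase that destroys muscle fibres. Members were barcodes with at least 500 detected genes and at most 10% of UMIs (unique molecular identifiers, each standing for a captured RNA molecule) from mitochondrially encoded genes. They also had fewer than 5 summed UMIs of the tendon genes Tnmd, Fmod, Kera and Chad, and fewer than 5 of the mural cell genes Rgs5, Kcnj8, Abcc9 and Higd1b. This kept 6436 of the 6990 barcodes in the quiescent and day 1 libraries, out of 17213 in the 5 libraries of the series. The quiescent library gave 1900 members of 2170 barcodes and the day 1 library 4536 of 4820. Raw counts of each library's members were summed and scaled by the library's total to CPM, and gene groups were then followed for transcription factors, receptors, metabolic enzymes and transporters.

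Both groups were C57BL/6J mice of the genotype Hic1CreERT2/CreERT2;Rosa26LSLtdTomato/+, in which a tamoxifen-inducible Cre recombinase made at the Hic1 locus switches on the red reporter tdTomato. All received 2.5 mg of tamoxifen in 100 uL of sunflower oil a day over 5 days at 8 weeks of age, followed by 10 days without it, so both groups carry the recombinase and the drug history. The first group is labelled quiescent with no time after injury, and the second is labelled as day 1. The cells were sorted by flow cytometry from whole hindlimb muscle and their 3' ends were read with droplet capture (10x Chromium, v2). There is 1 library per group, and the labels do not say how many mice went into each or at what hour they were sampled. No test was therefore possible, and every interval given is an exact 95% interval that covers counting error only.

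Muscle mesenchymal progenitors, also called fibro-adipogenic progenitors, lie between the muscle fibres and in the resting state are non-dividing, matrix-producing cells marked by Pdgfra. After damage they leave quiescence within days, signal to immune cells and muscle stem cells, divide and lay down transient matrix. Leaving quiescence in other cell types is known to involve growth in cell mass, with more synthesis of nucleotides, charged tRNAs and ribosomes, before DNA is copied.

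Depth differed between the libraries. Members held 7309210 UMIs in the quiescent and 42679103 in the day 1 library, with a median per cell of 3883 against 8787 UMIs and of 1627 against 2534 genes. The mean per cell was 2.45 times that of the quiescent library, so a gene whose CPM fell by that factor had about the same UMIs per cell in both. Mitochondrially encoded genes held 2.56% and 1.73% of UMIs, and 96 ribosomal protein genes 15.5% and 23.3%. All 9 progenitor markers were detected in both libraries. Pdgfra (318 and 235 CPM), Ly6a (2183 and 1940.2 CPM) and the tdTomato reporter (1243 and 1432 CPM) differed by less than 2-fold. The matrix genes Dcn (23756 and 6561 CPM), Col1a1 (2289 and 487 CPM), Col1a2 (3917 and 681 CPM) and Col3a1 (5767 and 1204 CPM), with Cd34 (1364 and 402 CPM) and Hic1 (37.8 and 10.1 CPM), fell, and Lum was at 2207 and 864 CPM. No UMI of the CreERT2 transgene was counted, which allows up to 0.410 CPM in the quiescent and 0.0703 CPM in the day 1 library. This limit covers only UMIs counted under that entry, and whether the transgene was expressed was not tested. Summed markers of monocytes and macrophages (11.6 and 6.63 CPM, 4 and 1 of 10 at 0), neutrophils (1.23 and 1.10 CPM, 5 and 4 of 8 at 0), endothelium (32.8 and 10.2 CPM) and Schwann cells (34.1 and 4.55 CPM) were low in both. Sums were larger for tenocyte (234 and 167 CPM), perineurial (74.2 and 42.5 CPM) and myogenic markers (45.6 and 25.05 CPM). Most of the tenocyte sum was Thbs4 (184 and 149 CPM), which the tendon limit did not use. Most of the myogenic sum was Des (40.1 and 18.4 CPM). Mural markers summed to 39.5 and 8.69 CPM. Lymphocyte markers summed to 1.78 and 11.7 CPM, nearly all of the second value from Ccl5 (0.684 and 11.2 CPM), with Cd3e, Cd3g, Cd79b, Ms4a1 and Nkg7 at 0. The libraries shared 21 barcodes.

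A gene was called when its ratio was at least 2 in the same direction under both CPM and TMM scaling (trimmed mean of M values, which sets the bulk of genes level) and it had at least 20 CPM in the higher library. Of 6045 genes with that level, 935 were called higher at day 1 (15.5%) and 724 lower (12.0%). The scalings differed by 0.61 on the log2 scale, and by 0.63 with the size factors of DESeq2. Log2 ratios are of CPM with 1 added. Their median over all 6045 genes was -0.15 by CPM and 0.46 by TMM. CPM alone called 935 genes higher and 1470 lower (24.3%), and TMM alone 1943 higher (32.1%) and 724 lower, so the direction of the balance between higher and lower genes turned with the scaling. The larger share of UMIs in ribosomal protein genes at day 1 moved with this shift, and its part in it was not tested. Each list is set against these shares and medians, as a description of 2 libraries.

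The 4 groups differed in balance. Of 415 transcription factors listed, 184 reached 20 CPM, and 11 of them rose (5.98%) while 56 fell (30.4%). Their median log2 ratio was -1.0 by CPM and -0.40 by TMM, below that of all genes on both scales. Receptors were close to this in their lower share and medians, with 37 lower (33.0%) of 112 tested from 421 listed. Their medians were -1.02 by CPM and -0.42 by TMM. Their 14 higher genes (12.5%) were a share nearer to that of all genes (15.5%). Metabolic enzymes went the other way, with 114 higher (30.1%) and 38 lower (10.0%) of 379 tested from 661 listed, and medians of 0.35 by CPM and 0.96 by TMM. Transporters and channels had 14 higher (10.0%) and 23 lower (16.4%) of 140 tested from 795 listed, and their median changed sign with the scaling, from -0.18 by CPM to 0.42 by TMM. By CPM alone 93 transcription factors, 57 receptors, 62 enzymes and 41 transporters were lower, and by TMM alone 23, 21, 181 and 31 were higher.

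**Figure D1:**
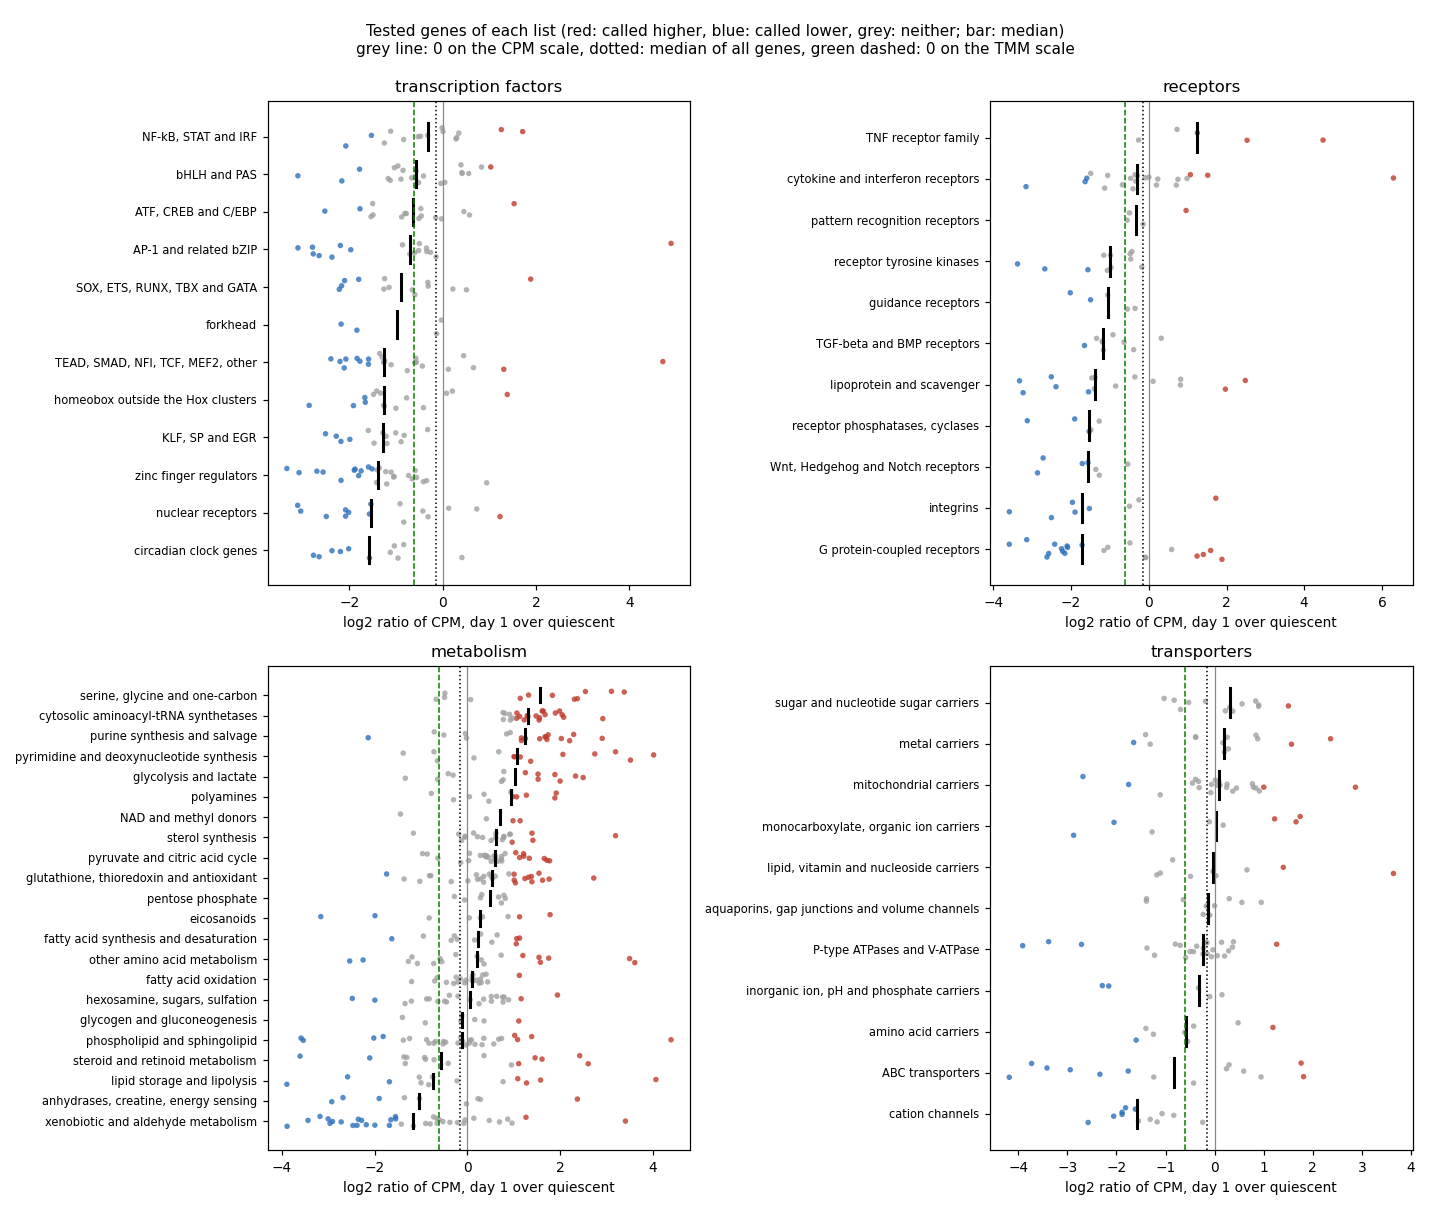
Log2 ratio of CPM, day 1 over quiescent, for each tested gene (points) of each list with at least 4 tested genes, in 4 panels for transcription factors, receptors, metabolism and transporters, with the list's median as a black bar. The solid line is 0 on the CPM scale, the dotted line the median of all 6045 genes (-0.15) and the green dashed line 0 on the TMM scale; most transcription factor and receptor lists lie left of the dotted line, and serine and one-carbon, tRNA synthetase, purine and pyrimidine lists lie right of it.

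Few transcription factors rose, and those that did include factors of growth and of inflammatory signalling. Fosl1, an AP-1 subunit induced by growth factors, was at 1.23 CPM in the quiescent and 65.2 CPM in the day 1 library, 53-fold higher (interval 27.9 to 116). Hmga1, a chromatin-binding protein abundant in growing cells, was at 2.05 CPM in the quiescent and 79.2 CPM in the day 1 library, 38.6-fold higher (interval 23.4 to 69). Both were near the counting limit in the quiescent library, with 9 and 15 UMIs, which is why their intervals are wide. Runx1, a factor of blood and mesenchymal progenitors, rose from 7.25 to 29.5 CPM, and Nfkb2, the precursor of the p52 subunit of NF-kB, rose from 16.4 to 56.1 CPM. Myc, the E-box factor that drives genes of ribosome and nucleotide synthesis, rose 2.05-fold from 72.6 to 149 CPM (interval 1.88 to 2.25), just past the limit by CPM. The remaining higher members were Trp53, which encodes p53 (from 75.8 to 189 CPM), the cell cycle repressor E2f4 (from 13.7 to 27.6 CPM), the TGF-beta antagonist Tgif1 (from 16.4 to 44.4 CPM), the stress sensor Atf6b (from 23.9 to 71.1 CPM), Stat5a (from 9.3 to 23.6 CPM) and the orphan nuclear receptor Nr4a2 (from 12.3 to 30.2 CPM). Of these, E2f4 was also just past the limit by CPM. Fosl1 was in 0.240% (interval 0.0654 to 0.613%) of 1667 quiescent and 10.1% (interval 9.26 to 11%) of 4536 day 1 cells after each cell was thinned to 2000 UMIs, against 2 of 97 mural cells of the day 1 library (2.06%). Without thinning the shares were 0.474% and 34.4%, at median depths of 3883 and 8787 UMIs, and 233 quiescent cells were too shallow to be thinned.

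The factors that fell were spread over most families, and nuclear receptors, zinc finger regulators and clock genes held many of them. Nuclear receptors bind hormones, lipids or haem and switch genes directly, and 8 of the 15 tested fell while Nr4a2 rose. Thra, the thyroid hormone receptor, was at 146 CPM in the quiescent and 25.1 CPM in the day 1 library, 5.81-fold lower (interval 5.33 to 6.33), and Nr3c1, the glucocorticoid receptor, fell from 175 to 40.7 CPM. The orphan receptors Rora (from 188 to 43.7 CPM) and Rorb (from 30.8 to 2.69 CPM) and the haem-binding repressors Nr1d1 (from 78 to 18.6 CPM) and Nr1d2 (from 31.1 to 9.82 CPM) fell with them, as did Nr2c2. Nr4a1 (131 and 218 CPM) and the oxysterol receptors Nr1h2 (54 and 40.0 CPM) and Nr1h3 (20.1 and 22.1 CPM) were not called.

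Among 26 zinc finger regulators tested, 11 fell and none rose, with medians of -1.38 by CPM and -0.77 by TMM. Zbtb20, a transcriptional repressor, was at 1152 CPM in the quiescent and 177 CPM in the day 1 library, 6.5-fold lower (interval 6.3 to 6.71). Peg3, an imprinted gene expressed from the paternal copy, was at 37.5 CPM in the quiescent and 2.81 CPM in the day 1 library, 13.3-fold lower (interval 10.7 to 16.7), and it was in 6.54% (interval 5.4 to 7.83%) of thinned quiescent and 0.860% (interval 0.612 to 1.17%) of thinned day 1 cells. Of 97 day 1 mural cells 2 had it (2.06%, interval 0.251 to 7.25%), so the day 1 share of members did not exceed the mural share, and unthinned member shares were 10.9% and 2.31%. Plagl1, another imprinted zinc finger gene, fell from 30.1 to 7.47 CPM. All 3 tested early B-cell factors, which act in mesenchymal and adipose precursors as well as in B cells, fell: Ebf1 from 1014 to 301 CPM, Ebf2 from 191 to 41.4 CPM and Ebf3 from 27.5 to 9.0 CPM, the last just past the limit by TMM. Hic1, the gene whose locus drives the recombinase, fell from 37.8 to 10.1 CPM, a ratio of 3.72 (interval 3.19 to 4.34), while the reporter it had switched on stayed within 2-fold. Snai2 fell from 20.4 to 2.62 CPM, and its relative Snai1 was at 27 and 52.8 CPM, without a call.

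The nuclear factor I family showed the same direction in 3 of its 4 members, with Nfia (from 232 to 49.8 CPM), Nfib (from 318 to 88.6 CPM) and Nfix (from 304 to 57 CPM) lower and Nfic at 199 and 117 CPM. Mef2a (from 46.5 to 12.9 CPM), Mef2c (from 47.1 to 10.1 CPM), Tcf7l1 (from 40.5 to 12.8 CPM) and Tcf7l2 (from 128 to 29.6 CPM), of which the last pair act in Wnt signalling in the nucleus, also fell. Hes1, the main nuclear target of Notch signalling, was at 76.9 CPM in the quiescent and 8.08 CPM in the day 1 library, 9.51-fold lower (interval 8.3 to 10.9). The forkhead members that fell were Foxo1 (from 42.5 to 11.2 CPM), a factor held out of the nucleus by insulin and growth factor signals, and Foxn3 (from 34.6 to 6.89 CPM), while Foxp1 was at 72.6 and 71.2 CPM. The mesenchymal identity gene Prrx1 was at 247 and 285 CPM and the limb factors Osr1 and Osr2 at 129 and 82.1 CPM and 80.7 and 53.4 CPM, none of them called.

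AP-1 factors, the Fos and Jun proteins and their relatives, fell more often than they rose. On the list of AP-1 and related leucine zipper factors, Fosl1 was the only member of 17 tested that rose, and 7 fell. Among those that fell were Jun (from 858 to 219 CPM), Jund (from 234 to 33.4 CPM) and Maf (from 83.5 to 8.86 CPM). Fos was at 2649 and 1459.9 CPM, Junb at 1769 and 1476 CPM and Fosb at 236 and 167 CPM, none of which passed the limit under both scalings. The early response genes Egr1 (from 1015 to 208 CPM), Atf3 (from 299 to 86.9 CPM) and Klf2 (from 141 to 24 CPM) and the interferon-induced factor Irf1 (from 118 to 27.2 CPM) were lower at day 1. These genes are also known to be induced while tissue is dissociated, and handling times are not given, so injury and handling cannot be told apart for them. Of 13 members of the KLF, SP and EGR list, 4 fell and none rose.

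Clock genes had low medians, -1.57 by CPM and -0.96 by TMM. Of 11 tested, 6 fell and none rose. The other 5 were not called, and 1 of them was at least 2-fold higher by TMM alone. The output factors Dbp (from 34.9 to 6.87 CPM), Hlf (from 28.9 to 3.77 CPM) and Tef (from 36.5 to 6.26 CPM) and the feedback gene Per3 (from 57.5 to 7.59 CPM) fell along with Nr1d1 and Nr1d2. The last pair was also counted among the nuclear receptors. Lists share some genes, so their counts of calls cannot be added up. Clock, listed with the helix-loop-helix factors, was at 43.5 and 20.7 CPM, Per1 at 35.8 and 18 CPM and Cry2 at 27.9 and 15.2 CPM, without a call. The hour of sampling is not in the labels, so time of day and time after injury cannot be told apart here.

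**Figure D2:**
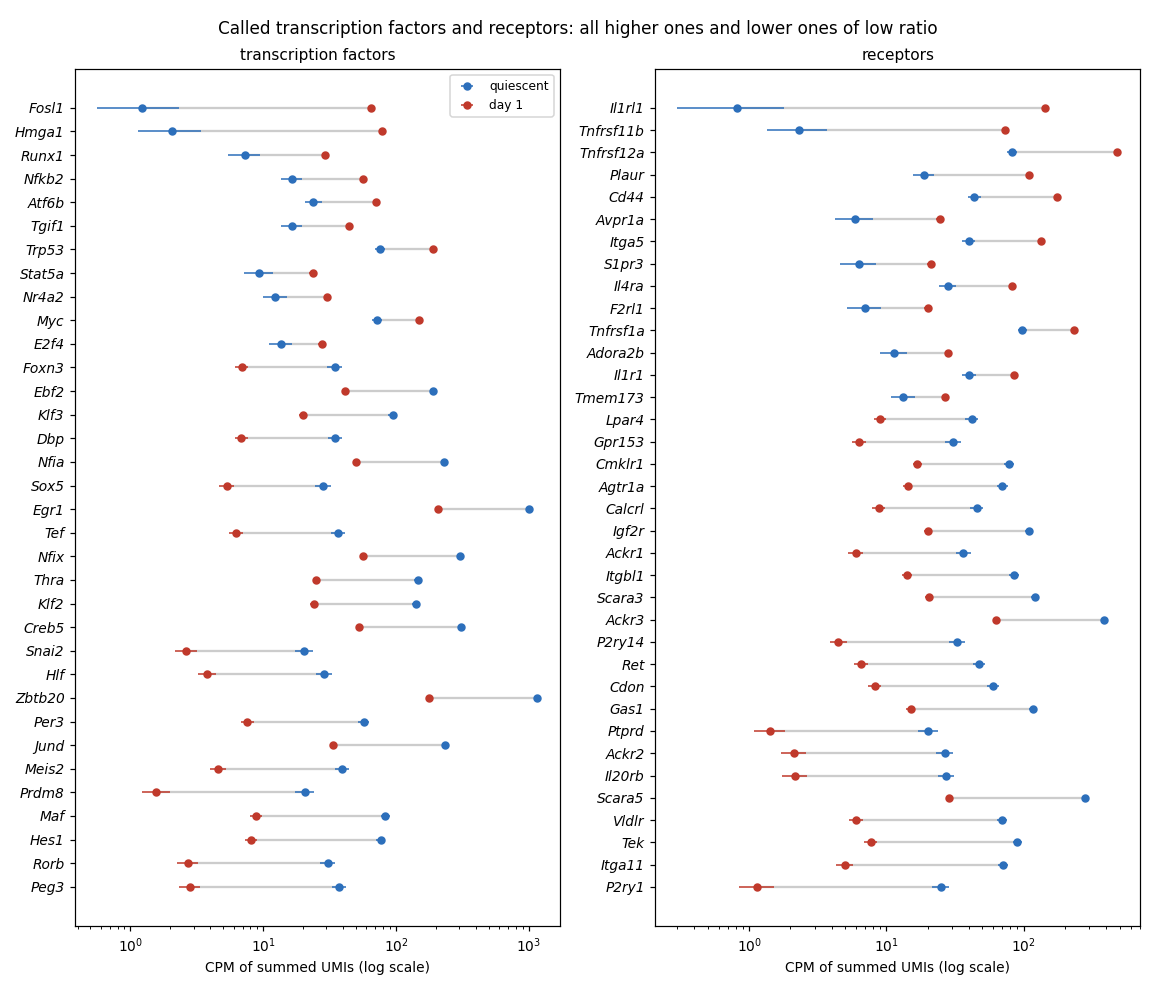
CPM of summed UMIs (log axis) in the quiescent (blue) and day 1 (red) libraries for called transcription factors (left) and receptors (right), with exact Poisson 95% intervals as bars, mostly narrower than the points. All 11 and 14 higher genes are shown, with 23 and 22 of the lower genes of low ratio; Fosl1 and Il1rl1 have the lowest quiescent levels among the higher genes, at 1.23 and 0.821 CPM.

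Single receptors of inflammatory cytokines, of plasminogen activation and of fibronectin were among the 14 that rose. Many G protein-coupled receptors, integrins and Hedgehog co-receptors fell. The cytokine and interferon receptor list as a whole had 3 higher (13.6%) and 3 lower (13.6%) of 22 tested. These shares were near those of all genes (15.5% and 12.0%). The cytokine receptor Il1rl1, which binds interleukin 33, was at 0.821 CPM in the quiescent and 142 CPM in the day 1 library, 173-fold higher (interval 79.5 to 472), from 6 UMIs in the quiescent library. It was in 0.180% (interval 0.0371 to 0.525%) of thinned quiescent and 10.3% (interval 9.38 to 11.2%) of thinned day 1 cells, so most thinned day 1 cells had no UMI of it, and 2 of 97 day 1 mural cells had one (2.06%). Without thinning the shares were 0.316% and 17.7%. The interleukin 1 receptor Il1r1 (from 39.9 to 85 CPM) and the interleukin 4 receptor chain Il4ra (from 28 to 82.1 CPM) rose as well, and its partner Il13ra1 was at 44.2 and 88.3 CPM, just short of 2-fold by CPM. Tmem173, which encodes STING, an adaptor of DNA sensing, rose from 13.3 to 26.7 CPM, just past the limit by CPM, from 97 UMIs in the quiescent library.

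The TNF receptor family had 3 members higher of 5 tested and none lower. Tnfrsf11b, which encodes the secreted decoy osteoprotegerin, was at 2.33 CPM in the quiescent and 73.4 CPM in the day 1 library, 31.6-fold higher (interval 19.7 to 54.3). Tnfrsf12a, the receptor for the cytokine TWEAK, was at 82.4 CPM in the quiescent and 479.8 CPM in the day 1 library, 5.83-fold higher (interval 5.37 to 6.33), and Tnfrsf1a, the main TNF receptor of stromal cells, rose from 97.4 to 233 CPM. Ltbr was at 38.4 and 64.2 CPM and the death receptor Fas at 26.3 and 21.7 CPM. Among scavenger and endocytic receptors, Plaur, the urokinase receptor that focuses plasmin at the cell surface, rose from 18.7 to 109 CPM, and Cd44, the main hyaluronan receptor, rose from 43.6 to 174 CPM.

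Receptors for the interleukin 6 family divided. Il6ra (from 24.8 to 7.26 CPM) and Lifr (from 65.7 to 21 CPM) fell, the shared signal chain Il6st was at 109.7 and 109.9 CPM, and Osmr was at 30.1 and 51.2 CPM, without a call. Il20rb fell from 27.2 to 2.16 CPM. The widely expressed Ifngr1 (429 and 309.6 CPM) and Il11ra1 (535 and 436 CPM) were not called.

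G protein-coupled receptors had 11 lower and 4 higher of 21 tested. P2ry1, a receptor for extracellular ADP, was at 24.9 CPM in the quiescent and 1.15 CPM in the day 1 library, 21.7-fold lower (interval 15.7 to 30.4), and the related nucleotide sugar receptor P2ry14 fell from 32.7 to 4.48 CPM. P2ry1 was in 4.74% (interval 3.77 to 5.87%) of thinned quiescent and 0.331% (interval 0.185 to 0.545%) of thinned day 1 cells (unthinned 8.47% and 1.08%). Of 21 thinned quiescent mural cells 2 had it (9.52%, interval 1.17 to 30.4%). Thinned to 1500 UMIs, 0 of 47 mural cells (which allows up to 6.38%) and 3.86% of 1786 members had it, and unthinned 1.79% of 112 mural cells did, so the small mural sample set no firm background. All 3 tested atypical chemokine receptors, which take up chemokines without signalling through G proteins, fell: Ackr1 from 36.4 to 5.97 CPM, Ackr2 from 26.7 to 2.13 CPM and Ackr3 from 382 to 63.1 CPM. The angiotensin receptor Agtr1a (from 69.9 to 14.2 CPM), the chemerin receptor Cmklr1 (from 78.4 to 16.8 CPM) and Calcrl (from 45.4 to 8.79 CPM), part of the receptors for CGRP and adrenomedullin, were lower too. The 4 that rose were low in the quiescent library: the vasopressin receptor Avpr1a (from 5.88 to 24.4 CPM), the sphingosine 1-phosphate receptor S1pr3 (from 6.29 to 21 CPM), the protease-activated receptor F2rl1 (from 6.98 to 20.1 CPM) and the adenosine receptor Adora2b (from 11.4 to 28.2 CPM).

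No receptor tyrosine kinase of 11 tested rose. Tek, the angiopoietin receptor, was at 89.9 CPM in the quiescent and 7.73 CPM in the day 1 library, 11.6-fold lower (interval 10.2 to 13.3). Ret, a GDNF family receptor, fell from 47.2 to 6.54 CPM. The neurotrophin receptor Ntrk2 fell from 64.4 to 21.1 CPM, just past the limit by TMM, while Axl (521 and 459 CPM), Egfr (152 and 109.9 CPM) and Pdgfrb (73.3 and 36.5 CPM) were not called. Tek and Ret are also known from endothelial and neural cells. Summed endothelial and Schwann cell markers fell too, from 32.8 to 10.2 and from 34.1 to 4.55 CPM. Most of the endothelial sum was Pecam1 (28.7 and 8.22 CPM). Cdh5, Kdr and Tie1 had 4, 9 and 3 UMIs in the quiescent library. S100b (18.1 and 0.890 CPM) was the largest part of the Schwann cell sum. A part of other cell types in the fall of Tek and Ret was not tested. Leaving out the 53 quiescent and 175 day 1 cells with at least 3 UMIs of other cell types' markers left 36 receptors lower and 13 higher. These counts do not give the change of Tek or Ret by itself. Tgfbr2, the ligand-binding TGF-beta receptor, fell from 196 to 61.5 CPM, with Tgfbr1 at 35.4 and 22.4 CPM. The Hedgehog co-receptors Gas1 (from 116 to 15.1 CPM), Cdon (from 59.7 to 8.2 CPM) and Boc (from 41.5 to 11.9 CPM) fell together, and so did the Wnt receptor Fzd4 (from 31.9 to 10.1 CPM), with none higher of 7 tested in the Wnt, Hedgehog and Notch list.

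Integrins, which tie cells to matrix, had 5 lower and 1 higher of 8 tested. Itga11, a collagen-binding chain, was at 70.9 CPM in the quiescent and 4.97 CPM in the day 1 library, 14.3-fold lower (interval 12.1 to 16.8), whereas Itga5, the fibronectin-binding chain, was at 39.7 CPM in the quiescent and 133 CPM in the day 1 library, 3.36-fold higher (interval 2.99 to 3.79). Itgb5 (from 87.2 to 21.6 CPM), Itga9 (from 22.6 to 5.32 CPM), Itgb3 (from 20.4 to 6.4 CPM) and the integrin-like Itgbl1 (from 85.2 to 14.2 CPM) fell, and Itgb1, the shared partner of Itga5 and Itga11, was at 186 and 131 CPM. Vldlr (from 69.5 to 6.02 CPM), Scara5 (from 278 to 28.6 CPM) and Scara3 (from 121 to 20.4 CPM) were the lowest in ratio among lipoprotein and scavenger receptors.

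Biosynthetic enzymes were the part of metabolism that rose most often. The 4 lists for purines, pyrimidines, serine with one-carbon units, and cytosolic tRNA synthetases had 46 higher and 1 lower of 68 tested genes. In cells thinned to 2000 UMIs, the 103 genes of these lists had a median of 8 UMIs per quiescent cell (quartiles 6 and 10). The median per day 1 cell was 16 (quartiles 12 and 19). These 4 lists had the highest shares of higher calls in metabolism, in the same cells. The quartiles therefore describe the spread over cells of 1 library each and add no separate support. For comparison, UMIs of all transcription factor lists had medians of 46 (quartiles 37 and 59) and 25 (quartiles 19 and 33), a change in the other direction.

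Promoter sequences of 5 genes of these lists, and of Ldha (glycolysis) and Asns (asparagine synthesis), are shown because the letters of known growth and stress elements lie just before their starts. The windows are the 250 bases before each annotated start in RefSeq (GRCm38.p6), searched on both strands for CACGTG, the E-box bound by MYC and other helix-loop-helix factors, and for TGATGNAA, the core of the element bound by ATF4 with C/EBP partners. Capitals mark these matches, and those of CCGGAAG, an ETS family core, where one is present. The first 4 windows hold the E-box: Ldha at chr7:46845554-46845803 on the plus strand, Nme1 at chr11:93968273-93968522 on the minus strand, Atic at chr1:71556906-71557155 on the plus strand and Impdh2 at chr9:108560186-108560435 on the plus strand.
Ldha: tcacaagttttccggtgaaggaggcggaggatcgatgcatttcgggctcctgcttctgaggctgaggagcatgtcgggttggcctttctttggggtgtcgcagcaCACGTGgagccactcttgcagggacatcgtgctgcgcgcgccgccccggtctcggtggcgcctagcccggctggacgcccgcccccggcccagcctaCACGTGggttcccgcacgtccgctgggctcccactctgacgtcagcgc
Nme1: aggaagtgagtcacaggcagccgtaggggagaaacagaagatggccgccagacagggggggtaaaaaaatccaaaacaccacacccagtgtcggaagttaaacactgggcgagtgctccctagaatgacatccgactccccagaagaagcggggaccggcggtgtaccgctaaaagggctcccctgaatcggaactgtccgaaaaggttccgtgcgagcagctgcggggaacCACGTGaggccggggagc
Atic: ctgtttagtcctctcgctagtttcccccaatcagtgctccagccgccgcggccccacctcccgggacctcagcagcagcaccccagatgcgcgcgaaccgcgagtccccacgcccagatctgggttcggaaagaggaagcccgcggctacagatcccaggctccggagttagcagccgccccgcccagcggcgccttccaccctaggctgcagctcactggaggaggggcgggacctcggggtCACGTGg
Impdh2: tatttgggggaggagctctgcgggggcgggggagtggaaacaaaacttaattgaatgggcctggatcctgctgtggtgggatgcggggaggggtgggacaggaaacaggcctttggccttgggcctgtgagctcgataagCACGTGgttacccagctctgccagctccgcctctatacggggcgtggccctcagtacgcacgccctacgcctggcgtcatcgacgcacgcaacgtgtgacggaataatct
The next 3 windows hold the ATF4 core: Asns at chr6:7693210-7693459 on the minus strand, Tars at chr15:11399659-11399908 on the minus strand and Prps1 at chrX:140456353-140456602 on the plus strand.
Asns: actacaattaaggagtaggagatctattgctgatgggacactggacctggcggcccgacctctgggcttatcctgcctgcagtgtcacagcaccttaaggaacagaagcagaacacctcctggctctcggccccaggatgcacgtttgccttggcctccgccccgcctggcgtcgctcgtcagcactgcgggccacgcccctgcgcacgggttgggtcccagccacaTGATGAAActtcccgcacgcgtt
Tars: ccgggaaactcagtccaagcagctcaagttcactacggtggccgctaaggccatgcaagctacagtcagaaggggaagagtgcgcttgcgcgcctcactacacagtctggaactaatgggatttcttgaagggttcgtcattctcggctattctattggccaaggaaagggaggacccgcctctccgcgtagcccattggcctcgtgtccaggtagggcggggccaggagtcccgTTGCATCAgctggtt
Prps1: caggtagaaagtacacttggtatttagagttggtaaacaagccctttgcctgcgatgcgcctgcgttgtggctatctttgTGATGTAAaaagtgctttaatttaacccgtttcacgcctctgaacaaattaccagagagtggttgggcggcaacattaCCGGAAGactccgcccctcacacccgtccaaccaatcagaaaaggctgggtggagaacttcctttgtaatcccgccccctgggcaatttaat
The matches begin 145 and 48 bases before the start in Ldha, 18 in Nme1, 7 in Atic, 110 in Impdh2, 23 in Asns, 15 in Tars and 170 in Prps1. Sequences run in the direction of the gene, and the match in Tars is on the other strand. CACGTG was in the window of 13.5% of 746 higher genes with a RefSeq promoter, 7.49% of 534 lower genes, 10.2% of 3381 genes called neither and 6.86% of all 27025 genes in the table. For TGATGNAA the shares were 2.68%, 3.18%, 2.45% and 3.91%. Most higher genes of the biosynthesis and glycolysis lists lacked both strings. CACGTG was in 2 of 11 purine, 2 of 8 pyrimidine, 2 of 9 tRNA synthetase, 1 of 7 glycolysis and 0 of 8 serine and one-carbon genes. TGATGNAA was in 1, 0, 1, 0 and 0 of these. CCGGAAG was in 22% of higher, 3.75% of lower and 18.7% of other tested genes, against 7.83% of all. Median GC content was 59.2% for higher and 59.9% for lower genes, and the median number of CG pairs per window 17 and 13. Only 77.1% of tested genes had a promoter entry, under the 80% set for such a check, so a comparison of these shares between sets is void and they stand as a description. A match is a string of letters and does not show that a factor binds there.

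Purine genes rose along most of the pathway. Ppat, which opens the de novo route, rose from 9.85 to 34.2 CPM, and the later steps Gart (from 26.8 to 92.1 CPM), Pfas (from 4.51 to 24.5 CPM), Adsl (from 28.7 to 93.9 CPM) and Atic (from 38.2 to 159 CPM) rose with it, while Paics was at 71.7 and 137 CPM. At the branch to guanine nucleotides Impdh2 was at 98 CPM in the quiescent and 484 CPM in the day 1 library, 4.94-fold higher (interval 4.59 to 5.33), and Gmps rose from 44.7 to 102 CPM. The salvage enzyme for adenine, Aprt, was at 64.8 CPM in the quiescent and 494 CPM in the day 1 library, 7.61-fold higher (interval 6.95 to 8.35), and Hprt, which salvages hypoxanthine and guanine, rose from 86.6 to 196 CPM. The only purine list gene that fell was Entpd2, a surface enzyme that breaks down extracellular ATP (from 497 to 112 CPM).

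Pyrimidine and deoxynucleotide genes rose in 9 of 14 tested and none fell. Ctps, which makes CTP, was at 10.4 CPM in the quiescent and 129.7 CPM in the day 1 library, 12.5-fold higher (interval 9.95 to 15.9). Nme1, which converts nucleoside diphosphates to triphosphates, was at 179.6 CPM in the quiescent and 1214 CPM in the day 1 library, 6.76-fold higher (interval 6.4 to 7.15). Cad (from 11.1 to 23.3 CPM) and Dhodh (from 14.4 to 32.9 CPM) of the de novo route and Uck2 (from 1.5 to 22 CPM) of uridine salvage rose too. Among deoxynucleotide genes, Dctd (from 1.09 to 32.9 CPM), Dut (from 14.5 to 63.7 CPM), Tyms (from 14.2 to 38.2 CPM) and Rrm1 (from 13.5 to 28.5 CPM) rose, and Samhd1, which degrades deoxynucleotides, was at 87 and 32.8 CPM, lower by CPM but short of the limit by TMM.

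Serine and one-carbon genes supply the carbon units used in purine and thymidylate rings. All 3 enzymes of serine synthesis rose: Phgdh from 47.2 to 119 CPM, Psat1 from 10.1 to 95 CPM and Psph from 18.6 to 69 CPM. Both serine hydroxymethyltransferases rose, the cytosolic Shmt1 from 1.23 to 22.3 CPM and the mitochondrial Shmt2 from 18.9 to 102 CPM, followed by Mthfd1 (from 10.3 to 64.8 CPM) and Mthfd2 (from 27.6 to 141 CPM). The methylation genes Mat2a (300.4 and 214 CPM) and Nnmt (128 and 135 CPM) were not called. Slc19a1, the reduced folate carrier at the cell surface, was at 4.38 CPM in the quiescent and 66.1 CPM in the day 1 library, 15.1-fold higher (interval 10.7 to 22.1). It was in 0.960% (interval 0.550 to 1.55%) of thinned quiescent and 10.4% (interval 9.51 to 11.3%) of thinned day 1 cells, against 1 of 97 day 1 mural cells (1.03%), and in 1.58% and 36.1% without thinning.

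Every one of the 23 tested genes of the cytosolic tRNA synthetase list, which load amino acids onto tRNAs or hold the loading complex together, had a higher CPM at day 1. Of these, 17 were called and none fell, and all 23 passed 2-fold by TMM alone. Eef1e1, a scaffold protein of the complex, was at 26.1 CPM in the quiescent and 205 CPM in the day 1 library, 7.83-fold higher (interval 6.79 to 9.09). The others called ran from Farsb (from 23.4 to 102 CPM) to Cars (from 31.6 to 67 CPM), and the lowest ratios were those of Gars (27 and 46.7 CPM) and Aars (42.4 and 73.4 CPM). Asns, which makes asparagine, was at 9.44 CPM in the quiescent and 127 CPM in the day 1 library, 13.4-fold higher (interval 10.6 to 17.3), and Bcat1, which transfers nitrogen from branched amino acids, rose from 5.47 to 72.2 CPM. Pycrl, an enzyme of proline synthesis, rose from 21.5 to 66 CPM, while Ckb, the brain-type creatine kinase, fell from 249 to 42.1 CPM. For Atf4 itself, the factor named with the printed Asns and Tars windows, the values were 168 and 251 CPM, and for Ddit3 53.2 and 30.0 CPM.

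**Figure D3:**
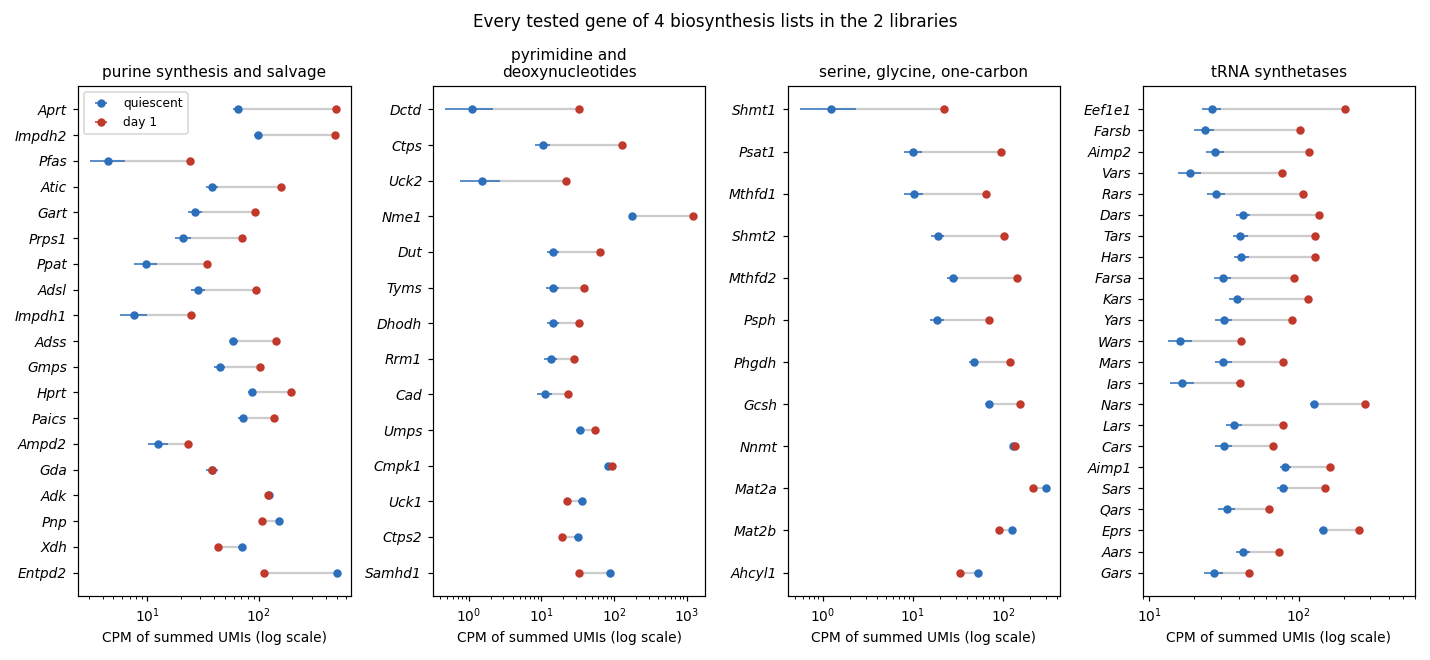
CPM of summed UMIs (log axis) in the quiescent (blue) and day 1 (red) libraries for every tested gene of 4 lists, ordered by ratio, with exact Poisson 95% intervals as bars. The red points lie right of the blue ones for all 23 genes of the tRNA synthetase list, and left of them for Entpd2, Gda, Xdh, Pnp and Adk in the purine list.

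Polyamine genes rose in 5 of 11 tested and none fell. Srm, which makes spermidine, rose from 20.5 to 78.7 CPM, Mtap, which recycles its by-product, rose from 20.2 to 79.3 CPM, and Dhps (from 19.4 to 41.7 CPM) and Dohh (from 40.6 to 99.7 CPM), which use spermidine to make hypusine on a translation factor, rose as a pair. Odc1, the entry enzyme, was at 32.8 and 63.8 CPM, just under 2-fold by CPM.

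Glycolysis rose in 7 of 14 tested genes, with Ldha, which turns pyruvate into lactate, at 262 CPM in the quiescent and 1488 CPM in the day 1 library, 5.67-fold higher (interval 5.42 to 5.94). Pkm (from 199 to 801 CPM), Pgk1 (from 14.4 to 55.9 CPM), Eno1 (from 145 to 421 CPM) and Pfkl (from 5.61 to 32.3 CPM) rose, while Hk1 (40.8 and 30.4 CPM), Hk2 (48.2 and 38.7 CPM), Pfkp (86.9 and 55.4 CPM) and the other lactate dehydrogenase subunit Ldhb (21.9 and 8.06 CPM) did not. Slc16a1, a lactate and pyruvate carrier, rose from 12.6 to 44.4 CPM, and the glucose carrier Slc2a1, which was also on the perineurial marker list, rose from 8.89 to 27 CPM while Itgb4, Cldn1 and Krt19 of that list were lower (3.83 and 0.492 CPM, 1.78 and 0.398 CPM and 23.7 and 2.04 CPM). Eno1, Gapdh, Ldha and Pgk1 have near-identical gene copies, so reads may be split or lost between them and their levels are uncertain.

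Citric acid cycle and related genes rose in 8 of 29 and none fell, with Mdh2 (from 182 to 623 CPM), Idh3a (from 40.1 to 129 CPM), Fh1 (from 53.2 to 136 CPM) and Cs (from 35.4 to 83.5 CPM) among them. In contrast, of 22 fatty acid oxidation genes Acsl4 alone was called (from 12.9 to 29.2 CPM), and none of 8 pentose phosphate genes passed, with Tkt at 108 and 181 CPM and G6pdx at 24.6 and 23.6 CPM. Both lists had medians above that of all genes on both scales, 0.10 by CPM and 0.71 by TMM for the former and 0.49 by CPM and 1.10 by TMM for the latter. Of 28 antioxidant genes, 11 rose, led by the mitochondrial superoxide dismutase Sod2 at 77.8 CPM in the quiescent and 521 CPM in the day 1 library, 6.69-fold higher (interval 6.16 to 7.29). Its neighbours in the same compartment, Prdx3 (from 74.7 to 219.9 CPM), Prdx5 (from 315 to 829 CPM) and Txn2 (from 117 to 362 CPM), rose, while cytosolic Sod1 was at 121 and 59.1 CPM and the secreted Gpx3 was at 1085 and 421 CPM.

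Enzymes that detoxify foreign compounds and aldehydes fell more often than any other metabolic list. Of 37 tested, 17 fell and 2 rose, and the medians were -1.16 by CPM and -0.56 by TMM. Gstm1, a glutathione transferase, was at 1056 CPM in the quiescent and 131 CPM in the day 1 library, 8.07-fold lower (interval 7.79 to 8.35), and Gstm2, Gstt1, Gstt2 and Gstt3 fell as well. Inmt, which methylates amines, was at 287 CPM in the quiescent and 18.5 CPM in the day 1 library, 15.5-fold lower (interval 14.3 to 16.9), and the sulfotransferases Sult1a1 (from 36.7 to 3.16 CPM) and Sult5a1 (from 129.7 to 15.8 CPM), the monooxygenases Fmo1 (from 45.1 to 7.87 CPM) and Fmo5 (from 20.1 to 2.2 CPM) and Aldh2 (from 395 to 122 CPM) were lower. The pair that rose was Gsto1 (from 17.4 to 194 CPM) and Akr1b8 (from 58.6 to 142 CPM). Several glutathione transferase genes, Gstm1 and Gstm2 among them, are closely alike in sequence, and their single values are uncertain. In thinned cells the 66 genes of the list had medians of 9 UMIs (quartiles 7 and 13) per quiescent cell and 5 (quartiles 3 and 7) per day 1 cell.

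Lipid genes changed in both directions. G0s2, an inhibitor of fat breakdown, was at 306 CPM in the quiescent and 19.7 CPM in the day 1 library, 15.6-fold lower (interval 14.4 to 16.9), and lipoprotein lipase Lpl fell from 541 to 89.4 CPM. Angptl4, a secreted inhibitor of lipoprotein lipase, was at 22 CPM in the quiescent and 385 CPM in the day 1 library, 17.5-fold higher (interval 15 to 20.6), and the lipid droplet coat gene Plin2 rose from 73.9 to 158 CPM. G0s2 was in 32.5% (interval 30.3 to 34.8%) of thinned quiescent and 4.03% (interval 3.48 to 4.65%) of thinned day 1 cells (unthinned 42.9% and 12.3%), and in 41.2% of 97 day 1 mural cells, a cell type that holds G0s2 and so gives no background for it. In sphingolipid and lysolipid metabolism, Sphk1, which makes sphingosine 1-phosphate, was at 1.64 CPM in the quiescent and 54.6 CPM in the day 1 library, 33.2-fold higher (interval 19 to 64.4), and Enpp2, which makes lysophosphatidic acid outside the cell, was at 291 CPM in the quiescent and 23.3 CPM in the day 1 library, 12.5-fold lower (interval 11.6 to 13.5). Sphk1 was in 8.58% (interval 7.78 to 9.43%) of thinned day 1 members and in a like share of day 1 mural cells (8.25%), which it did not exceed beyond counting error, and the thinned quiescent share was 0.0600% (unthinned 0.421% and 27%). The phosphatase Plpp3, which degrades both lipids, fell from 1319 to 325 CPM, and its relative Plpp1 rose from 63.8 to 131 CPM. The sterol synthesis list had 4 of 20 genes higher, a share (20%) near that of all genes (15.5%), with Cyp51 (from 30.5 to 81.8 CPM) among them. None was lower, against 12.0% of all genes, and its medians of 0.61 by CPM and 1.22 by TMM were above those of all genes. The oxysterol hydroxylase Cyp7b1 rose from 2.05 to 27 CPM, and Cyp27a1, another sterol hydroxylase, fell from 31.7 to 1.69 CPM.

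Retinoid and prostanoid enzymes make or remove short-range lipid signals. The retinaldehyde dehydrogenases Aldh1a2 (from 36.7 to 229 CPM) and Aldh1a3 (from 61.3 to 334 CPM) and the retinol dehydrogenase Rdh10 (from 9.3 to 30.5 CPM) rose, while Aldh1a1 was at 93 and 35.5 CPM. Ptgis, the prostacyclin synthase, rose from 69.8 to 243 CPM, Hpgd, which inactivates prostaglandins, fell from 33.9 to 2.91 CPM, and of the cyclooxygenases Ptgs1 fell from 36.8 to 8.51 CPM and Ptgs2 was at 51.3 and 95.2 CPM. Txnip, an inhibitor of glucose uptake and thioredoxin, was at 305 CPM in the quiescent and 39.3 CPM in the day 1 library, 7.76-fold lower (interval 7.28 to 8.27).

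Transporters had no common direction, with called members in 10 of the 11 lists. Slc25a5, an ADP and ATP exchanger of the inner mitochondrial membrane, was at 259 CPM in the quiescent and 1893 CPM in the day 1 library, 7.32-fold higher (interval 6.99 to 7.67), while its paralogue Slc25a4 was at 659 and 1239 CPM. Pseudogene copies of Slc25a5 are known and could take part of its reads. The mitochondrial pore Vdac1 rose from 126 to 252 CPM, and the uncoupling protein Ucp2 fell from 21.2 to 2.46 CPM. The metal carriers Slc39a14 (from 13.8 to 75.1 CPM), which imports zinc and iron, and Slc11a2 (from 8.76 to 27.9 CPM), which imports iron, rose, and the copper transporter Slc31a2 fell from 48.2 to 14.7 CPM. Slc3a2, the shared heavy chain of amino acid exchangers, rose from 114 to 262 CPM, Slc7a1, an arginine carrier, was at 15 and 21.3 CPM, and Slc38a2, a glutamine carrier, was at 131 and 89.4 CPM. The riboflavin carrier Slc52a2 (from 7.8 to 22.2 CPM) and the prostaglandin carrier Slco2a1 (from 18.6 to 60.8 CPM) rose as well.

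The ABC transporter list had 6 lower and 2 higher of 14. The pair that rose, Abce1 (from 27.2 to 94.7 CPM) and Abcf2 (from 25.9 to 93.2 CPM), carry ABC domains but no membrane part, and Abce1 is a ribosome recycling factor. Of the 6 that fell, 5 lie side by side on chromosome 11 and on the minus strand, between 109932190 and 110337716 in GENCODE M21 (GRCm38). Abca8b was at 141 CPM in the quiescent and 6.79 CPM in the day 1 library, 20.7-fold lower (interval 18.1 to 23.6), and Abca8a at 463 CPM in the quiescent and 34 CPM in the day 1 library, 13.6-fold lower (interval 12.8 to 14.5). Next to them, Abca9 fell from 86.7 to 10.4 CPM, Abca6 from 66.4 to 5.32 CPM and Abca5 from 29.7 to 8.06 CPM, so the 5 neighbours were lower by 3.68-fold to 20.7-fold. These genes arose by duplication, and Abca8a and Abca8b are near-identical, so the split of reads between them is uncertain. Abca8b was in 22.3% (interval 20.3 to 24.3%) of thinned quiescent and 1.9% (interval 1.52 to 2.34%) of thinned day 1 cells (unthinned 34% and 5.25%), and in none of 97 day 1 mural cells, which allows up to 3.09%. The cholesterol exporter Abca1, on another chromosome, fell from 34.5 to 6.02 CPM.

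The P-type ATPase and V-ATPase list had 3 lower (12.0%) and 1 higher of 25 tested, a share of lower genes equal to that of all genes. The sodium pump regulator Fxyd1 fell from 579 to 87.6 CPM, while its relative Fxyd5 rose from 105 to 253 CPM and the pump subunit Atp1b3 was at 64.8 and 57.1 CPM. The calcium pump Atp2b4 was at 79.2 CPM in the quiescent and 6.7 CPM in the day 1 library, 11.8-fold lower (interval 10.2 to 13.7), with Atp2b1 at 178 and 102 CPM and Atp2a2 at 63.8 and 77.9 CPM. Cation channels had 6 lower and none higher of 12 tested, with medians of -1.58 by CPM and -0.98 by TMM. Among them the sodium channel Scn7a fell from 108 to 34.7 CPM, the glutamate receptor subunit Gria3 from 22.4 to 2.93 CPM and the lysosomal channel Tpcn1 from 42.8 to 9.54 CPM. None of 10 aquaporin, gap junction and volume channel genes was called, and Gja1, a gap junction protein, was at 161 and 198 CPM.

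Some paralogues with related functions differed in direction, and the following were picked because they did, after their values were seen. Maoa, which oxidises serotonin and noradrenaline, rose from 10.8 to 33.5 CPM, and Maob fell from 21.3 to 3.7 CPM. Stat5a rose and Stat5b fell from 24.2 to 7.76 CPM. In the organic anion carriers Slco2a1 rose whereas Slco2b1 (from 31.2 to 3.4 CPM) and Slco3a1 (from 82.1 to 19.1 CPM) fell.

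Called genes also differed in length. The median of the longest annotated transcript in GENCODE M21 was 2530 bases for the 935 higher genes, 4038 for 722 lower genes and 3194 for 4382 genes called neither. With the tested genes in 4 length classes of equal size, 20.4% of the shortest were higher and 8.61% lower, and in the longest class 6.23% were higher and 19.7% lower. Median log2 ratios by CPM in the 4 classes, from short to long, were 0.19, 0.17, -0.16 and -0.78. The 56 transcription factors that fell had a median transcript length of 5241 bases and a median gene span of 70593 bases, against 3145 and 8400 for the 11 that rose. Transcript length thus moved with the direction of change across all tested genes, and its part in the balance of the transcription factor list was not tested.

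**Figure D4:**
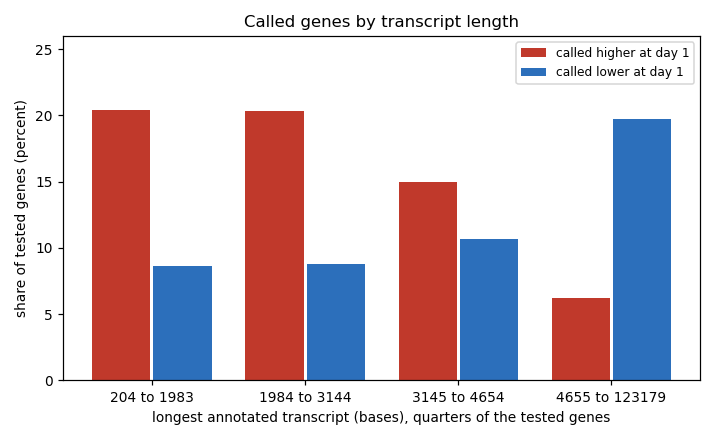
Share of tested genes called higher (red) or lower (blue) at day 1, in percent, for 4 classes of equal size of the tested genes by length of their longest annotated transcript in bases. Higher genes make up 20.4% of the shortest class and 6.23% of the longest, and lower genes 8.61% and 19.7%.

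The libraries labelled as days 2, 4 and 14 after injury, of the same genotype and 1 each, gave 2407, 3810 and 2424 cells under the same limits. Each was compared with the same quiescent library, so the comparisons share that control and a high or low value there enters all of them. Of the 935 genes called higher at day 1, 413 were still at least 2-fold over the quiescent library, by CPM with 1 added, at day 2, 117 at day 4 and 15 at day 14. Of the 724 lower genes, 514, 250 and 24 were still at least 2-fold below it. By CPM the limit for a lower call at day 1 was stricter than for a higher call, by 0.61 on the log2 scale. The later days used 2-fold by CPM for both, so the numbers left of higher and of lower genes are not alike. Receptors that rose had the highest median of the 4 groups to day 4 and the lowest at day 14, with log2 ratios of 1.66, 1.41, 1.17 and 0.11 at days 1, 2, 4 and 14, and with 8 of 14 still past 2-fold at day 4 and 0 at day 14. Among them Tnfrsf12a went from 479.8 CPM at day 1 to 133, 107 and 52.8 CPM, and Il1rl1 from 142 to 4.8, 3.16 and 0.562 CPM. Enzymes that rose had medians of 1.55, 1.11, 0.45 and 0.12 on the same scale. Fosl1 was already at 15.5 CPM at day 2 and at 1.96 CPM at day 4, whereas Runx1 was higher at day 2 (35.9 CPM) and day 4 (60.1 CPM) than at day 1.

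**Figure D5:**
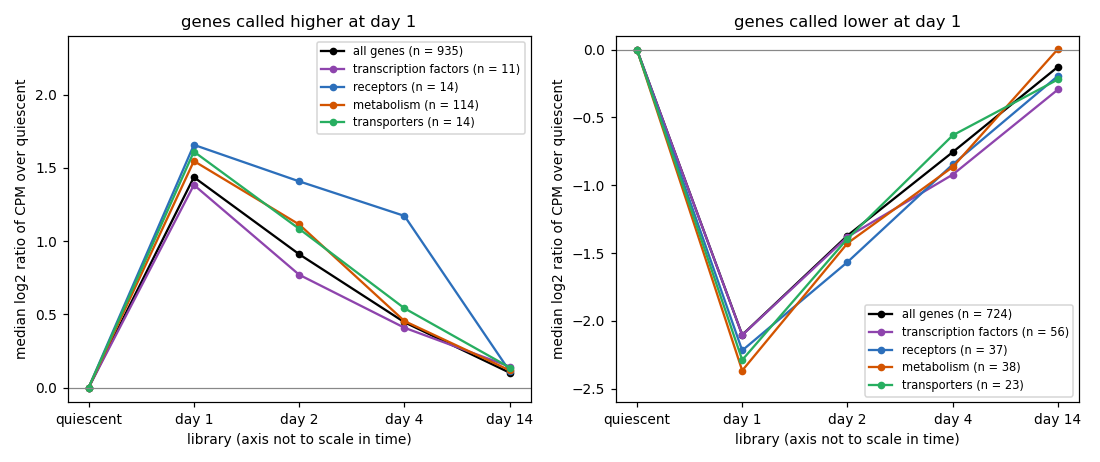
Median log2 ratio of CPM over the quiescent library at days 1, 2, 4 and 14 for genes called higher (left) or lower (right) at day 1, for all genes and for the 4 groups, with the number of genes in the key. All lines are farthest from 0 at day 1, where the members were chosen, and lie between -0.29 and 0.14 at day 14.

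At day 14 few members were still past 2-fold in the direction of day 1, and clock genes were among them. Of 56 transcription factors lower at day 1, 7 were still lower, 4 of them from the clock list: Nr1d1 at 15.7 CPM, Nr1d2 at 8.99 CPM, Dbp at 10.8 CPM and Hlf at 12.1 CPM. The other 3 were Hes1 (17.9 CPM), Klf9 (98.5 CPM) and Meis2 (10.3 CPM). Of the other called genes on the lists, Vldlr (33.3 CPM) and Akr1c18 (5.22 CPM) were still lower, and Gsto1, Hmga1, Pgk1, Runx1 and Slc2a1 still higher at day 14.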

How the data were processed

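Single cells from 5 libraries were measured by 3' RNA sequencing, and the quiescent and day 1 libraries, 1 sample each, were compared. The deposited matrices hold whole-number UMI counts, 1 row per gene, as the authors made them and without normalization. Cell Ranger and mm10 come from the submitters' processing notes, and its version, its cell-calling rule and the use of strand are not given in the sources used. Counts of members were summed per library and scaled to CPM, with TMM factors from edgeR 4.0.16 and size factors from DESeq2 1.42.0 (R 4.3.3) used for scaling alone. Other steps used Python 3.11.15, numpy 2.4.6, scipy 1.17.1, pandas 2.3.3 and matplotlib 3.10.9. No test was made and no p-value is given. Ratios have exact conditional binomial 95% intervals and shares Clopper-Pearson intervals, after thinning cells to 2000 UMIs. A gene at 0 in a library was set to a floor of 3 counts there. The calling step was tested on simulated data. Doublets were neither called nor removed. The members and gene lists were chosen with earlier results of these data known. From each list the rule names up to 3 called genes of highest and 3 of lowest ratio and the most abundant member, and other list members were named after their values were seen. Of 6045 tested genes, 4661 matched a RefSeq promoter by symbol or Ensembl ID, and genes with several starts counted when any window matched. The quiescent library holds the fewer UMIs and sets the precision. Members near the tendon limit, with 3 or 4 UMIs of those genes, were 13 quiescent and 31 day 1 cells, and 8 and 22 cells with 5 or 6 were left out. For the mural limit these numbers were 1 and 6, and 2 and 8. Transcript lengths and gene positions came from GENCODE M21. The alternatives tried were each scaling alone, other CPM minimums, other cell filters and equal weight per cell. Values of some called genes are not reported here, though the counts of calls include them.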

Additional observations from a re-analysis of the deposited data

How the results depend on the processing

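No paired analysis was possible because each group is 1 library, and for the same reason no replicate could be left out. By CPM alone, without the condition on TMM, the lower calls were 1470 of all genes, 93 transcription factors, 57 receptors, 62 enzymes and 41 transporters. By TMM alone the higher calls were 1943 of all genes, 23 transcription factors, 181 enzymes and 31 transporters, and by DESeq2 size factors alone 2009, 23, 187 and 34. These follow from dropping a condition. At a minimum of 5 CPM the lower calls were 1367 of all genes, 61 receptors, 61 enzymes and 56 transporters, and 23 transporters were higher. At 50 CPM 385 of all genes were lower, with 6 transcription factors higher and 30 lower, 9 receptors higher and 16 lower, 22 enzymes lower, and 9 transporters higher and 11 lower. With no minimum, 1502 of all genes were higher and 5292 lower, with 24 and 123 transcription factors, 38 and 158 receptors and 32 and 219 transporters, and 116 enzymes lower. Genes of few UMIs enter there by construction. With other cell filters (1000 genes and 5% mitochondrial UMIs, a limit of 2 or none on tendon and mural UMIs, deeper cells alone, the 5% of cells with most UMIs left out, no cells with markers of other types, no shared barcodes), higher calls of all genes ran from 898 to 938 and lower calls from 686 to 733. With equal weight per cell they were 842 and 568, and under all of these each group's counts stayed within 1.5 times. Among 251 named genes, none of the called ones changed direction under the alternatives run on it. For CPM or TMM alone this followed from the call, which needed both. Uncalled named genes were not counted in this check, and the direction of small ratios such as that of Pdgfra turned with the scaling. By TMM alone 238 of the 251 log2 ratios moved beyond their counting interval, and with equal weight per cell 109 did. Precision is set by the quiescent library, where 1 UMI is 0.137 CPM.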

Other observations

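Outside the lists, the genes named here are from the 10 highest and 10 lowest ratios among called genes with at least 100 CPM. Timp1, an inhibitor of matrix metalloproteinases, was at 41.2 CPM in the quiescent and 4711 CPM in the day 1 library, 114-fold higher (interval 102 to 129), and Cthrc1, a secreted protein of activated fibroblasts, was at 6.16 CPM in the quiescent and 108 CPM in the day 1 library, 17.5-fold higher (interval 13 to 24). Mif, a cytokine and tautomerase, rose from 114 to 1313 CPM, and Mmp3, a matrix metalloproteinase, rose from 39 to 829 CPM. At the other end the matrix genes Hmcn2 (from 141 to 5.27 CPM), Col15a1 (from 325 to 18.8 CPM) and Cilp (from 225 to 14.6 CPM) and the peptide hormone gene Pthlh (from 159 to 6.35 CPM) fell.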
